A study of Homo sapiens with 4 samples.

Results

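The G1 cyclins, cyclin-dependent kinases (CDKs) and RB family genes were described in SW1990, an established human pancreatic adenocarcinoma line. They are CCND1, CCND2, CCND3, CDK2, CDK4, CDK6, CDKN1B, RB1, RBL1 and RBL2, that is 10 of the 25798 gene IDs in the deposited tables. They were chosen by symbol. All 10 were found, each under 1 gene ID, and all 10 passed the filter on low counts. RNA sequencing covered 4 libraries of wild-type SW1990 cells. In 2 of them the cells had been exposed to erianin, a plant bibenzyl known to disturb microtubules, at 100 nM for 48 h. In the other 2 they had received the solvent DMSO for the same time. The study's title names the kinases AKT and ASK1 as targets of the compound. Whether replicates are separate cultures is not stated by the labels, and p-values speak of the scatter among these 4 libraries alone, and that scatter may be technical.

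D-type cyclins bind CDK4 or CDK6 and begin the phosphorylation of RB1 and its relatives RBL1 (p107) and RBL2 (p130), which otherwise hold E2F transcription factors in check. Cyclin E with CDK2 completes it, and E2F then drives the genes of S phase. The protein of CDKN1B, p27, inhibits CDK2. AKT is known to act on this step from several sides: it restrains GSK3B, which marks cyclin D1 for breakdown, and the FOXO factors, which raise CDKN1B transcription. In pancreatic ductal cancers the inhibitor gene CDKN2A is often lost, which frees CDK4 and CDK6.

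RBL1 is itself a known E2F target, and among the 7 of these genes with a listed window it alone held the E2F letters. The letters searched, on both strands, were TTTGGCGC, TTTCCCGC, TTTCGCGC and TTTGCCGC, in the 250 bases before each RefSeq start (GRCh38.p14). Of 35116 such windows, 2.79% held any of them. Windows were listed for 7 of the 10 genes (CCND3, CDK4, CDK6, CDKN1B, RB1, RBL1 and RBL2), and several of these starts lie inside the span that GENCODE gives the gene. The window listed for RB1, 48476200 to 48476499, lies far inside its span, which begins at 48303726. The bases before that first RB1 position were thus not searched. CCND1, CCND2 and CDK2 had no entry. In the E2F and DP factor genes 4 of 8 with a window held the letters, and in the S phase genes known as E2F targets 5 of 13 did. The stretches around the letters are shown for RBL1 and for the genes of those lists that are named below, 5′ to 3′ on the gene's strand, with the E2F letters in capitals.
RBL1, chr20:37095998-37096039, minus strand: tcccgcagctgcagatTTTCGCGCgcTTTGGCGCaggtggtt
E2F3, chr6:20401810-20401849, plus strand: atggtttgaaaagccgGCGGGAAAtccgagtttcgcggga
TFDP1, chr13:113584617-113584656, plus strand: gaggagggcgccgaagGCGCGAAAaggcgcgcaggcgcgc
PCNA, chr20:5126658-5126697, minus strand: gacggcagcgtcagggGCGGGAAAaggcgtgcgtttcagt
RBL1 held 2 matches, at -26 to -19 and -16 to -9 from its start, and each of the others shown held 1, read on the opposite strand. The FOXO letters GTAAACA stood in 2.98% of all windows and the CRE letters TGACGTCA in 1.65%, and neither was found in the windows of these 7 genes.

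The counts of a library added up to between 59923935 and 63336545. Ductal keratins were abundant in every library: KRT8 lay between 5250 and 6533 CPM (counts per library size, after TMM adjustment). The summed CPM of 7 epithelial and ductal markers was 12168 and 12471 in DMSO and 13059 and 14955 in erianin. Nearly all of it came from KRT7, KRT8, KRT18 and KRT19. EPCAM lay between 2.39 and 6.05 CPM, MUC1 between 2.81 and 5.15 and CDH1 between 16.45 and 19.2. The summed CPM of 6 fibroblast markers was 38.5 in DMSO replicate 1 and between 11.2 and 14.3 in the other libraries. DCN, one of these, had 398 counts in DMSO replicate 1, 8 in DMSO replicate 2 and 0 in both erianin libraries. The blood cell markers summed to 193.1 to 244.4 CPM, nearly all of it CD68, while PTPRC was at 0 in 3 of 4 libraries. The endothelial markers summed to at most 1.3 CPM and the acinar and islet markers to at most 0.144 CPM. Erianin replicate 2 stood apart: its Spearman correlation with the other libraries over the 17090 genes tested was 0.978 to 0.982, against 0.985 to 0.987 among those 3. Fitted log2 fold changes that moved by more than 1.5 times without it are given both ways below for the members and the genes named by p. The part of these differences between libraries in the results was not tested.

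No gene of the G1 group passed the test between erianin and DMSO. With edgeR's quasi-likelihood test adjusted over all genes, 0 of 10 passed at 0.05, where 0.041% of all genes did, and DESeq2 and limma-voom also called 0 of 10. RB1 and RBL2 were the members with the lowest levels in erianin relative to DMSO. Both lay under 0.05 before adjustment, which makes 2 of 10 in edgeR, where 8.1% of all genes did so in either direction and 5.89% did so as lower. In edgeR no member did so as higher, beside 2.21% of all genes. In DESeq2 the count was 3, with CCND3 as higher (0.22) beside RB1 and RBL2. DESeq2 was run without the low-count filter, and 1600 of its 25798 genes lay under 0.05. In limma-voom the count was 2, where 1673 of 17090 genes did. The median log2 fold change over the 10 genes was -0.14, beside -0.01 over all genes tested. Against the DMSO mean, the median was 0.01 for erianin replicate 1 alone and -0.27 for erianin replicate 2 alone. The erianin libraries lay wholly below the DMSO libraries for RB1, RBL2 and CCND1 (24.4% of all genes did) and wholly above them for CCND3 (21.7% did), and the groups overlapped for the other 6. Together these 4 of 10 stand beside 46.1% of all genes in either direction.

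**Figure D1:**
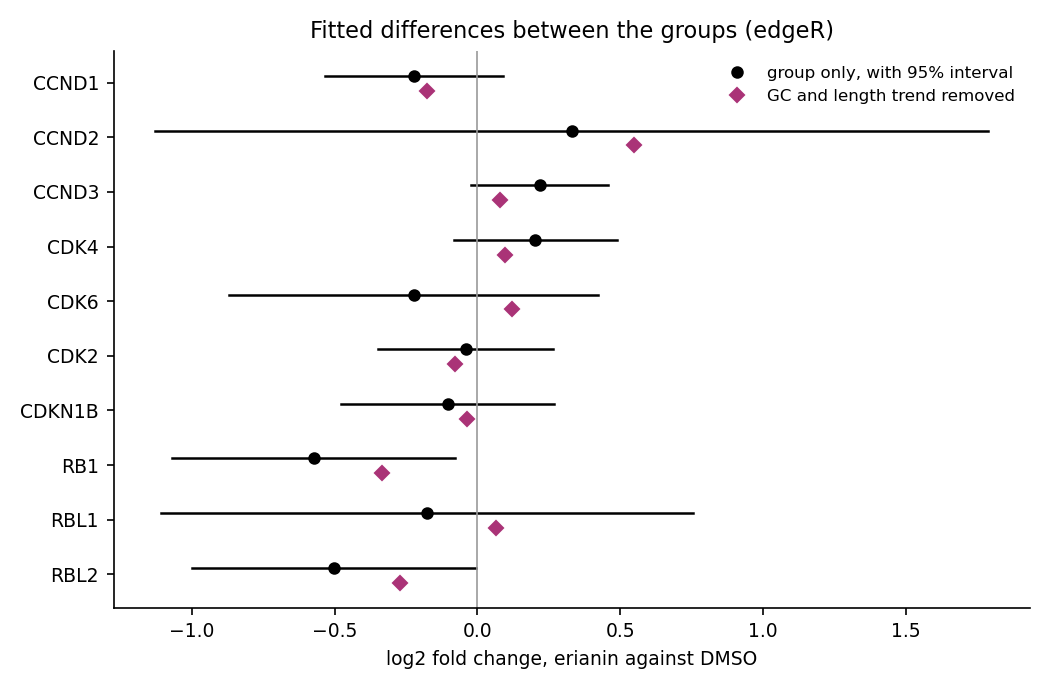
Log2 fold change of erianin against DMSO for each gene from edgeR (black points, bars are 95% intervals, n = 2 libraries a group) and after each library's dependence on GC content and transcript length was removed (diamonds). The intervals of RB1 and RBL2 end just below 0 and those of the other 8 genes include it, while none of the 10 passed after adjustment.

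Transcript levels per length differed widely between the members. FPKM (fragments scaled to gene length and library size) allow one gene to be set beside another. In DMSO the order of mean FPKM was CCND3 at 157.1 ± 7.5, CDK4 at 153.5 ± 11.5, CCND1 at 30.1 ± 0.891 and CDK2 at 13.4 ± 0.997 (SD, n = 2 each). CDKN1B followed at 6.5 ± 0.467, RB1 at 3.28 ± 0.262 and RBL2 at 3.02 ± 0.0919. RBL1 at 0.405 ± 0.0919, CDK6 at 0.225 ± 0.0495 and CCND2 at 0.065 ± 0.0354 closed it. CCND3 and CDK4 overlapped in both groups and could not be ordered. RB1 and RBL2 stood next to each other in DMSO, at 3.09 and 3.08 FPKM in their nearest libraries, and overlapped in erianin. Within each library RB1 was the higher. It had 3.46 against 3.08 and 3.09 against 2.95 FPKM in DMSO, and 2.62 against 2.11 and 1.55 against 1.28 FPKM in erianin. All other neighbours in this order were apart in the DMSO libraries.

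**Figure D2:**
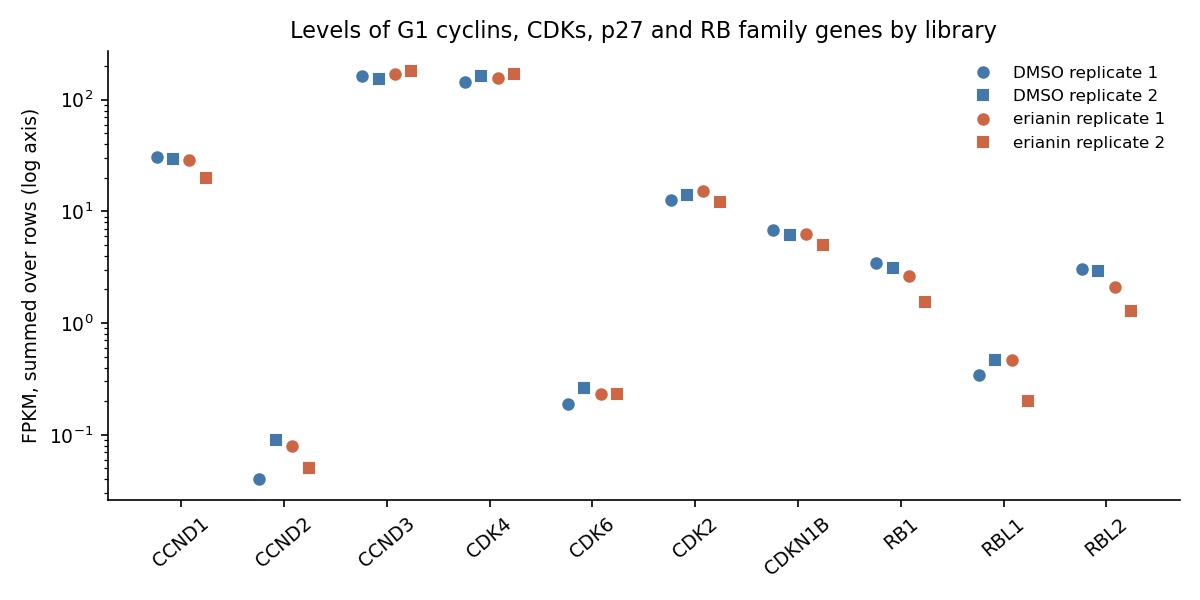
Deposited FPKM of each gene, summed over its rows, in each of the 4 libraries (log axis). CCND3 and CDK4 lie above 100 FPKM in all libraries, while CDK6, RBL1 and CCND2 lie below 1.

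The D-type cyclins differed widely in level. CCND3 (cyclin D3, GRCh38 chromosome 6, 41934933 to 42050357, minus strand) had 162.4 and 151.8 FPKM in DMSO and 171 and 180.3 FPKM in erianin. It made up 84.1% and 83.7% of the FPKM of the 3 cyclins in DMSO and 85.5% and 90.1% in erianin. CCND1 took 15.9% and 16.3% in DMSO and 14.5% and 9.88% in erianin. CCND2 stayed at or under 0.05% in every library. The share of CCND3 was higher in both erianin libraries, by 3.91 percentage points on average (exact permutation test, two-sided p = 0.333, the smallest that 2 against 2 libraries can give). With the largest row of each gene in each library alone the difference was 2.35 points and the groups overlapped.

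CCND3 had 356.4 and 338 CPM under DMSO and 375.3 and 432.2 CPM under erianin. Both erianin libraries lay above both DMSO libraries, and erianin replicate 2 was the highest. The fitted log2 fold change was 0.22 ± 0.10 (SE), with a 95% interval from -0.02 to 0.46 and an adjusted p of 0.575. It was 0.11 without erianin replicate 2, and 0.08 once the trend with GC content was removed. Cyclin D3 is the D-type cyclin best known from lymphocytes and muscle, though it is widely expressed.

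CCND1 (cyclin D1, chromosome 11, 69641087 to 69654474, plus strand), a classic growth factor and oncogene target, had 145.3 and 140.3 CPM under DMSO. In erianin it had 139 and 105.7 CPM. Erianin replicate 1 lay just below the DMSO libraries and erianin replicate 2 well below. The log2 fold change was -0.22 ± 0.13 (SE), with an interval from -0.53 to 0.09. It was -0.04 without erianin replicate 2 and -0.44 without erianin replicate 1. CCND2 (cyclin D2, chromosome 12, 4273772 to 4305350, plus strand) was at 25 and 30 counts in DMSO and 39 and 26 counts in erianin. Its log2 fold change of 0.33 (0.51 without erianin replicate 2 and 0.11 without erianin replicate 1) had an interval from -1.13 to 1.79, so at this depth a change of more than 2-fold in either direction could not be told from none.

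The kinases of the D-type cyclins were almost all CDK4. CDK4 (chromosome 12, 57747727 to 57756013, minus strand) gave 99.8% to 99.9% of the FPKM of CDK4 and CDK6 in every library. It had 145.4 and 161.6 FPKM in DMSO and 155.1 and 171.4 FPKM in erianin. CDK6 (chromosome 7, 92604921 to 92836594, minus strand) had 0.19 and 0.26 FPKM in DMSO and 0.23 FPKM in each erianin library. It rested on 127 to 199 counts a library.

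CDK4 had 293.2 and 322.5 CPM under DMSO and 315.3 and 393.1 CPM under erianin. Erianin replicate 1 lay between the DMSO libraries and erianin replicate 2 above them, and the log2 fold change was 0.20 ± 0.12 (SE), or 0.036 without erianin replicate 2. CDK6 had 2.55 and 3.19 CPM under DMSO and 2.62 and 2.29 CPM under erianin, with overlapping groups. Its log2 fold change of -0.22 ± 0.28 (SE) was -0.13 without erianin replicate 2 and became 0.12 with the GC trend removed, so no direction can be given for it.

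CDK2 and its inhibitor p27 showed the smallest fitted differences on the count scale, though not with the GC trend removed or on the FPKM scale. CDK2, the kinase of cyclin E (chromosome 12, 55966769 to 55972784, plus strand), had 31.5 and 35 CPM under DMSO and 33.3 and 31.3 CPM under erianin. The groups overlapped and the log2 fold change was -0.04 ± 0.13 (SE), with an interval from -0.35 to 0.27. CDKN1B (chromosome 12, 12715058 to 12722371, plus strand) had 19 and 16.9 CPM under DMSO and 18.1 and 15.3 CPM under erianin. Again the groups overlapped, at a log2 fold change of -0.10 ± 0.16 (SE) and an interval from -0.48 to 0.27. Both intervals leave out a 1.5-fold change. Without erianin replicate 2, CDK2 was at 0.0043 and CDKN1B at 0.014.

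RB1, the retinoblastoma tumour suppressor gene (chromosome 13, 48303726 to 48599436, plus strand), had 18.4 and 16.5 CPM under DMSO and 14.2 and 9.29 CPM under erianin. Both erianin libraries lay below both DMSO libraries, erianin replicate 2 by the most. The log2 fold change was -0.57 ± 0.21 (SE), with an interval from -1.07 to -0.08. Its edgeR p was 0.0285 before and 0.575 after adjustment over all genes. The difference was -0.30 without erianin replicate 2. A fit with the replicate number as a block called RB1, as 1 of 10 members, beside 1.95% of all genes, and with the GC trend removed as well it called none of the 10 (RB1 edgeR adjusted p = 0.5). With the GC trend removed it was -0.33, at an unadjusted p of 0.0529 from edgeR.

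RBL2 (p130, chromosome 16, 53433977 to 53491649, plus strand) is the RB family protein that binds E2F4 in resting cells. It had 16.9 and 15.9 CPM under DMSO and 14 and 9.11 CPM under erianin, with the libraries in the same arrangement as for RB1. The log2 fold change was -0.50 ± 0.22 (SE), with an interval from -1.001 to -0.0063. Its edgeR p was 0.0478 before and 0.575 after adjustment over all genes. It was -0.23 without erianin replicate 2 and -0.27 with the GC trend removed. RBL1 (p107, chromosome 20, 36996349 to 37095995, minus strand) varied most between replicates, at 2.08 and 3.05 CPM under DMSO and 3.06 and 1.46 CPM under erianin. Erianin replicate 1 was the highest and erianin replicate 2 the lowest of its 4 values. The log2 fold change of RBL1 was -0.18 ± 0.40 (SE), and 0.26 without erianin replicate 2. In bulk RNA, fewer cells with a transcript and less of it per cell cannot be told apart.

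Within the RB family, with rows summed, the shares of FPKM were nearly even between RB1 and RBL2. RB1 took 50.3% and 47.5% of the family's FPKM in DMSO and 50.4% and 51.2% in erianin. RBL2 took 44.8% and 45.3% in DMSO and 40.6% and 42.2% in erianin, lower in both erianin libraries (exact permutation test, two-sided p = 0.333, the smallest possible). RBL1 took between 4.94% and 9.04%. With the largest row of each gene in each library alone, RB1 took 58.2% and 61.5% and RBL2 31.2% and 30.5% in erianin. The difference of the RBL2 share from DMSO was then -13.6 percentage points, against -3.63 with rows summed. For RBL2 the largest row was not the same in both groups. It had an implied length of 4860 nt in DMSO and 6345 nt in erianin, so that difference compares different rows.

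**Figure D3:**
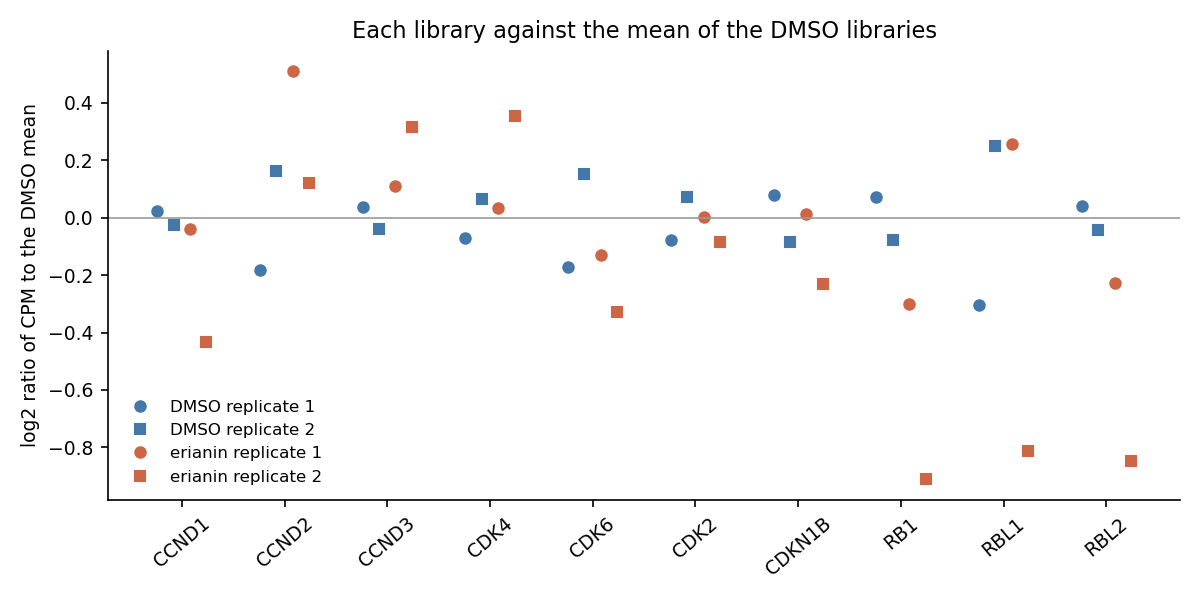
Log2 ratio of each library's CPM to the mean of the DMSO libraries, for each gene. Erianin replicate 2 has the lowest value for RB1, RBL1, RBL2, CCND1, CDK2, CDK6 and CDKN1B and the highest for CCND3 and CDK4, and erianin replicate 1 lies nearer to 0 for each of these.

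Except for CCND2, the differences from the DMSO mean were larger in erianin replicate 2. Without erianin replicate 1, which leaves it as the lone erianin library and assumes that it varies as the DMSO libraries do, edgeR called 5 of 10 members: CCND1, RB1 and RBL2 as lower and CCND3 and CDK4 as higher. In that fit 17.5% of all genes were called. The log2 fold changes were then -0.92 for RB1, -0.86 for RBL2, -0.44 for CCND1, 0.31 for CCND3 and 0.34 for CDK4 (adjusted p = 0.0086, 0.00958, 0.00757, 0.0119 and 0.0134). Without erianin replicate 2 the same fit called 0 of 10, beside 0.132% of all genes, with a smallest adjusted p of 0.676. Without DMSO replicate 1 or DMSO replicate 2 it also called 0 of 10 (0.345% and 0.404% of all genes).

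The fold changes of all genes were higher at higher GC content, with a Spearman correlation of 0.428 over the genes tested. Of the 10 members, 7 lay on the same side of 0 as the median of their decile of genes. The share of all genes that did so was not computed, so the 7 are a description only. In the decile of tested genes with the least GC the median log2 fold change was -0.28, and in the decile with the most it was 0.18. RB1 has a GC content of 37.3%, in the lowest decile. RBL1 and CDK6 lie in the next, where the median was -0.27, and RBL2 at 43.2% in the one after it, where it was -0.23. CCND3, at 56.2%, lies in a decile with a median of 0.12, and CDK4 in one with 0.07. CCND1, at 50.3% GC, lies in a decile with a median of 0.01. In erianin replicate 2 the lowest and highest deciles had medians of -0.41 and 0.27 against DMSO, and in erianin replicate 1 of -0.13 and 0.08.

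**Figure D4:**
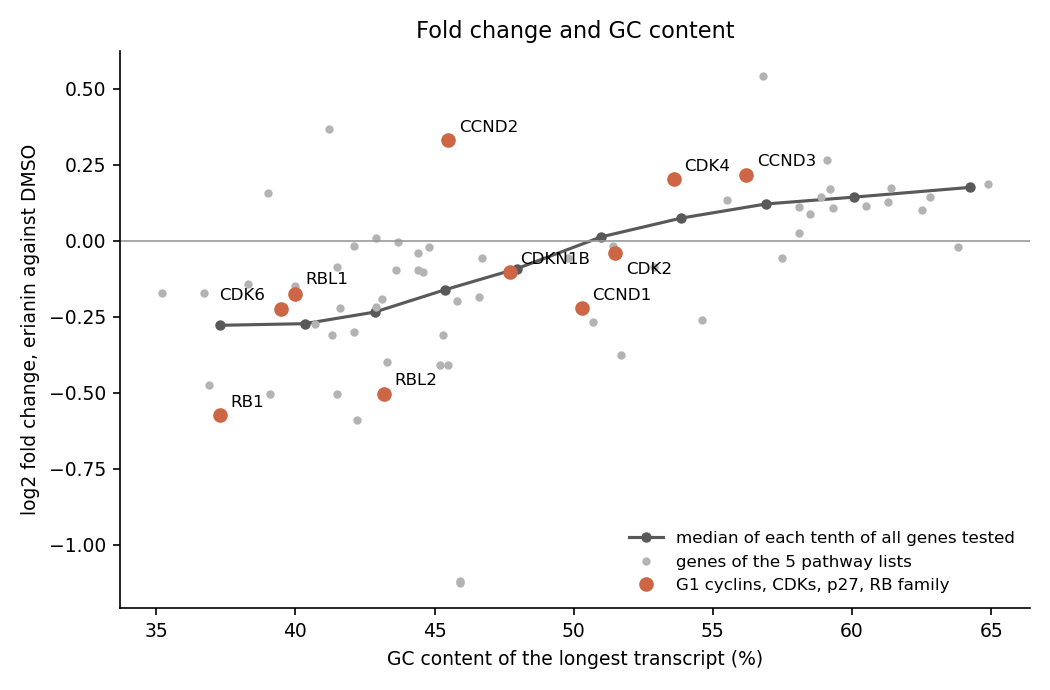
Log2 fold change of erianin against DMSO by GC content of the longest GENCODE transcript, for the 10 genes (orange), the genes of the 5 pathway lists (light grey) and the median of each decile of all genes tested (line). RB1, RBL2 and CCND1 lie below the line and CCND3, CDK4 and CCND2 above it.

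Once each library's dependence on GC content and transcript length was removed, the median of the 10 genes was 0.01 and 5 lay on each side of 0. EdgeR then called 0 of 10, beside 0.0299% of all genes, and 0 of 10 lay under 0.05 before adjustment, beside 6.68% of all genes. The log2 fold change of CCND1 stayed at -0.18 and that of CDK4 became 0.10. With erianin replicate 1 left out as well, CCND1 was called as lower (-0.34, edgeR adjusted p = 0.0211), 1 of 10 beside 4.54% of all genes. RB1 and RBL2 were then at -0.51 and -0.45 (adjusted p = 0.0782 and 0.115).

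The count table divides most genes into several rows without transcript names, and for RBL2 this division differed between the groups. How the reads of a gene were apportioned among its rows is not stated by the labels, and its part in the division was not tested, so a row is not taken here for a measured transcript. One row of RBL2 held 45 and 7 counts in DMSO and 642 and 341 counts in erianin. Another held 1065 and 980 counts in DMSO and 246 and 160 counts in erianin. The first thus took 4.04% and 0.705% of the gene's counts in DMSO and 72% and 67.4% in erianin. Counts and FPKM imply a length of 6345 nt for the first row and 4860 nt for the second, close to the longest RBL2 transcript of GENCODE 29 at 4906 nt. The row with more counts in erianin has the longer implied length. The difference of RBL2 on the log2(FPKM + 0.1) scale was -0.83, beside -0.50 on the count scale.

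Shifts of this kind were not rare. Of 9989 genes with several rows and at least 100 counts in every library, 7.23% had a row whose share differed by at least 30 percentage points between groups that did not overlap. A shift as large as that of RBL2 was found in 0.731%. Shares differed by at least 30 points between the erianin libraries in 17% of these genes and between the DMSO libraries in 15.6%. The shift in RBL2 was noticed in the data and has no test of its own. Among the other members whose rows could be compared none had such a shift. The nearest was CDK2, where a row of implied length 1261 nt had 0 counts in both DMSO libraries and 436 and 167 counts in erianin, 20.6% and 9.6% of the gene's counts there. The division of CDK2 also varied between replicates. Its main row held 95.6% and 64.1% of the gene's counts in DMSO and 62.6% and 83.2% in erianin.

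**Figure D5:**
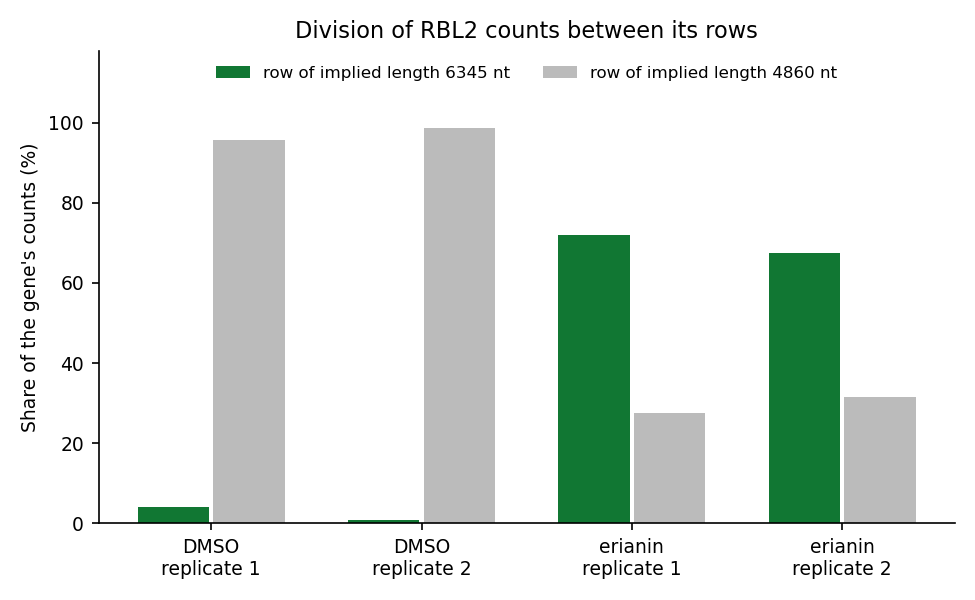
Share of the counts of RBL2 in its 2 main rows, by library, as bars from 0. The row of implied length 6345 nt holds at most 4.04% in DMSO and at least 67.4% in erianin.

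Part of the sequence of some members is shared with other annotated genes, mostly on the other strand, and whether the counting used strand is not given in the sources used here. CDK4 shares 892 nt of its longest transcript with TSPAN31, which had 1045 to 1429 counts a library, far below the 19350 to 21846 of CDK4. RBL2 shares 610 nt with AKTIP, at 290 to 402 counts, against 506 to 1114 for RBL2. CCND1 shares 258 nt with LTO1. CCND2 shares 989 nt with AC008012.1 on its own strand, CDK2 331 nt with AC025162.1 and RBL1 211 nt with AL136172.1. The values of these genes are uncertain to that extent.

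Of the 57 genes in 5 further lists of the pathway, 0 passed edgeR's test after adjustment and 2 lay under 0.05 before it, both lower (5.89% of all genes). Their median log2 fold change was -0.09. The groups did not overlap for 21 as lower (24.4% of all genes) and for 7 as higher (21.7%). Among the other cyclins, inhibitors and activators, 0 of 14 lay under 0.05 before adjustment, beside 8.1% of all genes, and the median was -0.05. CDKN2A, whose protein p16 blocks CDK4 and CDK6, was present at 328.8 and 337.3 CPM under DMSO and 324.2 and 427.7 CPM under erianin. Its log2 fold change was 0.17 ± 0.13 (SE) and became -0.06 with the GC trend removed. CDK7, of the kinase that activates CDKs, was at -0.27 ± 0.18 (SE), and CDC25A, a phosphatase that activates CDK2, at -0.38 ± 0.27 (SE). Without erianin replicate 2 these were -0.050 and -0.096, and CDKN2A was at -0.037. CCNE1, cyclin E1, had 11.8 and 9.76 CPM under DMSO and 8.04 and 12.3 CPM under erianin, and was named after its values had been seen.

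Of the 10 E2F and DP factor genes, 1 lay under 0.05 before adjustment, beside 8.1% of all genes, and the median was -0.12. It was E2F8, an atypical E2F that represses transcription, at 3.12 and 2.29 CPM under DMSO and 1.4 and 1.08 CPM under erianin. Its log2 fold change of -1.13 ± 0.33 (SE) came at an edgeR p of 0.01 before adjustment and 0.575 after it, and stayed at -0.98 with the GC trend removed. E2F3 was at -0.41 ± 0.18 (SE), or -0.26 without erianin replicate 2, and TFDP1, a partner of the E2Fs, at -0.19 ± 0.14 (SE).

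The 14 S phase genes known as E2F targets had the lowest median of the lists, at -0.21. Against the DMSO mean, their median was -0.09 for erianin replicate 1 alone and -0.25 for erianin replicate 2 alone. With the GC trend removed their median was -0.077. That of the other cyclins, inhibitors and activators was then also -0.077, and that of the E2F and DP factor genes -0.070. Before that removal 12 of 14 target genes lay below 0, where 8772 of all 17090 genes did. After it 10 of 14 did, beside 11 of 14 other cyclins, inhibitors and activators. CHEK1, a checkpoint kinase gene, was the 1 of 14 under 0.05 before adjustment, beside 8.1% of all genes. It was at 12.7 and 15.2 CPM under DMSO and 10.2 and 9.48 CPM under erianin. Its log2 fold change was -0.50, and its edgeR p was 0.018 before and 0.575 after adjustment. With the GC trend removed it was -0.25, with an edgeR p of 0.152 before adjustment, so that 0 of 14 lay under 0.05. CDC6, which loads the replicative helicase, was at -0.41 ± 0.19 (SE), or -0.21 without erianin replicate 2 and -0.22 with the GC trend removed. PCNA, the sliding clamp of DNA polymerase, was at -0.31 ± 0.18 (SE), or -0.081 without erianin replicate 2 and -0.59 with erianin replicate 1 left out instead.

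The list of MuvB subunits, which join RBL1 or RBL2 and E2F4 into the repressive DREAM complex, also holds MYBL2, another partner of MuvB, and the kinase gene DYRK1A. It gave 0 of 7 under 0.05 before adjustment, beside 8.1% of all genes, and a median of -0.10. DYRK1A, the kinase that promotes DREAM assembly, was at -0.59 ± 0.28 (SE), LIN54 at -0.50 ± 0.27 (SE) and RBBP4 at -0.22 ± 0.14 (SE). All 3 have GC contents between 39.1% and 42.2%, and with the GC trend removed they were at -0.26, -0.22 and 0.09. Without erianin replicate 2 they were at -0.26, -0.26 and -0.048.

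Of the 12 genes for turnover of p27 and the D and E cyclins, 0 lay under 0.05 before adjustment, beside 8.1% of all genes. Their median was -0.02, and 0.09 with the GC trend removed, where 9 of 12 lay above 0. With that trend removed 1 of 12 lay under 0.05 before adjustment, beside 6.68% of all genes, and 0 passed after it. FBXW7, which marks cyclin E for breakdown, had 1.94 and 2.24 CPM under DMSO and 1.43 and 0.486 CPM under erianin, a log2 fold change of -1.12 ± 0.51 (SE). It was -0.55 without erianin replicate 2 and -2.11 without erianin replicate 1. GSK3B was at -0.30 ± 0.14 (SE) and at 0.03 with the GC trend removed. RNF123, a ligase for p27, was at 0.17 ± 0.11 (SE), or 0.10 without erianin replicate 2.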

How the data were processed

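Per the submitters' processing notes, fastp, STAR, StringTie 2.2.1, featureCounts 2.0.1 and GRCh38 were used, with no role or order given. The authors deposited whole-number counts and FPKM in 107429 rows, without transcript names. Rows of a gene differ widely, so the deposited counts were treated as estimated counts per row, where plain counts had been assumed, and were summed per gene ID, as were the deposited FPKM. Gene symbols were looked up by gene ID in a reference table, and positions, GC content and length were taken from GENCODE 29 (97.8% of tested genes).

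Groups came from sample titles. All genes were fitted with edgeR 4.0.16 (R 4.3.3): TMM factors, filterByExpr (minimum count 10, 17090 genes kept), quasi-likelihood F test on group alone (2 residual degrees of freedom), Benjamini-Hochberg adjustment over all genes, threshold 0.05. Standard errors are the log2 fold change over the square root of F. The GC and length trend was fitted per library with natural splines (5 degrees of freedom, genes of mean log2 CPM at least 3) and used as an offset. Shared sequence (at least 200 nt at 95% identity) was found with BLAST+ 2.17.0. The implied row length uses the library total that single-row genes imply. The fits were tested on simulated data. Alternatives used DESeq2 1.42.0 and limma 3.58.1, other factors and filters, FPKM with a pseudocount of 1 or 0.1, a replicate block and leaving out libraries. Removing the GC trend with a library left out, and the rows of a gene, were added after seeing the data.

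The members and lists were chosen with earlier results of these data known. Named genes were all members and, from each pathway list, the 3 with the smallest p. Protein sequences were not used here.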

Additional observations from a re-analysis of the deposited data

How the results depend on the processing

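Depth limits CCND2, CDK6 and RBL1 most, which had 25 to 199 counts a library, and there were 2 libraries a group. RB1, RBL2, CCND1, CCND3 and CCND2 kept their direction in every alternative that was run (20, or 19 for CCND2, which a CPM filter removes). Their values nearest 0 were -0.17 for RB1, -0.11 for RBL2, -0.03 for CCND1, 0.02 for CCND3 and 0.0003 for CCND2. That of CCND2 came on FPKM with a pseudocount of 1, so no direction can be given for it. The count of members past the threshold was 0, and 1 (RB1, -0.60, edgeR adjusted p = 0.0478) with the replicate number as a block. It was 0 to 5 over the fits that left out 1 library, and 0 to 1 over those fits with the GC trend removed. The count for the pathway lists was 0, with 0 to 14 and 0 to 2 over the same fits. Over all genes 7 passed, and 2 did with library totals alone or with FPKM at either pseudocount, 24 with DESeq2, 0 with limma-voom (1673 at an unadjusted p under 0.05), 334 with the replicate block and 15 with the block and GC trend removal together. Leaving out 1 library gave 24 to 3166, and 12, 35, 802 and 24 with the GC trend removed (DMSO replicate 1, DMSO replicate 2, erianin replicate 1 or erianin replicate 2 left out). The block changed no other call among the members. Same-numbered libraries deviated together by a correlation of 0.222 over 7986 genes, and the labels do not say that a number marks a shared culture, so the pairing rests on the number only.

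With the GC trend removed, the log2 fold change became 0.12 for CDK6, 0.066 for RBL1, -0.062 for CDKN2A, 0.0895 for RBBP4 and 0.026 for GSK3B. With the replicate block as well it was 0.13, 0.057, -0.064, 0.0898 and 0.016. On FPKM with a pseudocount of 1 it became 0.025 for CDK2, 0.0065 for CDK6 and 0.047 for RBBP4, and with 0.1 it was 0.026, 0.030 and 0.037. The cause of these turns was not tested. When 1 library was left out, the log2 fold change ran from -0.115 to 0.0365 for CDK2, from -0.24 to 0.0141 for CDKN1B, from -0.82 to 0.26 for RBL1 and from -0.037 to 0.35 for CDKN2A. With the GC trend removed as well, these values lay on the other side of 0. Leaving out DMSO replicate 1 gave 0.038 for CDKN1B, -0.0645 for CDKN2A, 0.057 for RBBP4 and 0.018 for GSK3B. Leaving out DMSO replicate 2 gave 0.33 for CDK6, 0.41 for RBL1, -0.058 for CDKN2A, 0.12 for RBBP4 and 0.030 for GSK3B. Leaving out erianin replicate 1 gave 0.20 for CDK6, -0.0045 for CDKN2A, 0.0097 for TFDP1, 0.080 for RBBP4 and 0.20 for GSK3B. Leaving out erianin replicate 2 gave -0.020 for CDK4, 0.046 for CDK6, 0.035 for CDKN1B, 0.39 for RBL1, 0.052 for CDK7, -0.13 for CDKN2A and 0.102 for RBBP4. With the largest row of each gene in each library alone, the FPKM share of RB1 differed between erianin and DMSO by 10.3 percentage points. It differed by 1.89 with rows summed. The RBL2 row used there was not the same in DMSO as in erianin. For CDK4 the difference was 0.0467 percentage points, against 0.00453 with rows summed.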
